A study of Homo sapiens with 32 samples.

Results

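Cytosines of nuclear-encoded mRNAs were examined for N4-acetylcytidine (ac4C) in Hep3B cells, a human hepatocellular carcinoma line. The set held every reference cytosine in an exon of a protein-coding gene on chromosomes 1 to 22 and X, read on the gene's strand, outside tRNA, rRNA-like, snoRNA and snRNA genes, and covered by at least 100 reads in each of 12 libraries. This gave 12281 cytosines of the 71544 reference cytosines with that depth in all 12 libraries. They lay in 149 genes. Of these cytosines 8652 (70.5%) were coding, 2351 (19.1%) lay in 5′ UTRs and 1269 (10.3%) in 3′ UTRs, and 9 lay in exons outside coding transcripts. The coding cytosines fell on codon position 1 in 2428 cases, position 2 in 2409 and position 3 in 3815. Of all 12281 cytosines, 8060 (65.6%) had a 31-base window that occurred once in GRCh38, and cytosines of histone and other gene copies share reads. Apart from this, 1838 also lay in an exon of a second annotated gene.

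ac4C is a cytidine that carries an acetyl group on its base. NAT10, the human RNA cytidine acetyltransferase, places it in helices of 18S rRNA and in the D arm of serine and leucine tRNAs, in each case at the middle base of a CCG triplet, and its presence in mRNA has been debated. Sodium cyanoborohydride (NaCNBH3) in acid reduces ac4C, and reverse transcription with 2-amino-dATP then reads the reduced base as T, so that the T share at a reference C (T reads over all reads at that position) is the measurement.

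The 12 libraries came from 3 genotypes, each with a NaCNBH3 fraction and a mock fraction (acid only) of the same RNA in 2 replicates. NAT10(-) cells carried endogenous NAT10 fused to an FKBP degron tag and a control plasmid. NAT10-WT cells carried the same tagged allele and an added copy of unmutated NAT10, and Wildtype cells were parental, with untagged NAT10. The degrader dTAGV1 was given to all cells, the Wildtype ones included, at 100 nM for 24 h. A further 20 libraries, from cells with the tag alone (FKBP) or with the tag and NAT10 mutated in its helicase (K290A, E389L) or acetyltransferase domain (H537A, G641E), entered the sums given at the end and the values of 1 RPS16 cytosine. The median member was covered by 295 reads per library, and the reads at these cytosines summed to 55092541 over the 12 libraries. The cutoff fell in a dense part of the depth range, with 769 cytosines in the 5 read numbers from the cutoff up and 825 in the 5 just under it. Liver markers were covered in all 12 libraries (ALB at 2033 to 2057 of 2285 exonic positions with at least 30 reads, SERPINA1 at 1238 to 1345 of 3006), while AFP, TTR and FGB were at 0 in some. The fibroblast markers COL1A1, COL1A2 and COL3A1, the endothelial markers PECAM1, VWF and CDH5, and the leukocyte markers PTPRC and CD74 had no such position, and LYZ had 0 to 285 of 1490. The NAT10 mRNA itself had no position with 30 reads in NAT10(-) or Wildtype libraries and 518 to 1082 of 3973 in NAT10-WT libraries, so its endogenous mRNA could not be read at this depth, and degradation of the protein is not measured here.

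Both NAT10 target cytosines of 18S rRNA, the positive controls for the chemistry, are shown first. An RPS16 cytosine with T after NaCNBH3 in NAT10-WT but not in Wildtype cells follows, and then the mRNA cytosines that differed between genotypes. Each is written 5′ to 3′ on the RNA's strand as DNA letters, with 10 bases on each side, and capitals mark the cytosine with its neighbours.
18S C1337 (chr21:8210957-8210977, +): ggtgcatggCCGttcttagtt
18S C1842 (chr21:8211462-8211482, +): acaaggtttCCGtaggtgaac
RPS16 coding (chr19:39433691-39433711, -): catccgtgtCCGtgtaaaggg
RPL37A 5′ UTR (chr2:216498864-216498884, +): gtcgcggcgACAtggtgagtg
H3C2 coding (chr6:26031724-26031744, -): aggacacaaACCtttgcgcca
The coordinates are those of GRCh38. The 18S cytosines and the RPS16 cytosine share the CCG triplet, which 833 of the mRNA cytosines (6.78%) also had. The RPL37A and H3C2 cytosines stand in other triplets.

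NaCNBH3 turned most reads to T at both 18S cytosines in cells with NAT10, and few in NAT10(-) cells. At C1842 the T share after NaCNBH3 was 4.29% and 6.66% in NAT10(-) cells, against 74.8% and 90.8% in Wildtype and 59.5% and 71.5% in NAT10-WT cells. At C1337 it was 9.15% and 11.1% in NAT10(-) cells, against 67.1% and 89.1% in Wildtype and 59.8% and 72.0% in NAT10-WT cells. The mean mock share at the C1842 position was 0.108% in NAT10(-), 1.33% in Wildtype and 0.811% in NAT10-WT cells. The NAT10(-) replicates lay far below every other NaCNBH3 library at both positions, and replicate 2 was above replicate 1 in every genotype. The next highest cytosine of 18S rRNA in Wildtype NaCNBH3 libraries was at 1.91%.

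Summed over the mRNA cytosines, the T share was higher after NaCNBH3 than in mock in all 6 RNA samples, NAT10(-) cells included. Before summing, 15 cytosines with a T share over 5% in the mock reads were set aside, which left 12266. The summed T share after NaCNBH3 was 0.0856% and 0.112% in NAT10(-) cells, 0.0767% and 0.122% in Wildtype cells and 0.0847% and 0.117% in NAT10-WT cells (replicates 1 and 2). In the mock fractions it was 0.0456% and 0.0442% in NAT10(-), 0.0424% and 0.0419% in Wildtype, and 0.0415% and 0.0453% in NAT10-WT cells. The NaCNBH3 and mock libraries did not overlap, whichever genotype they came from. The mean was 0.0996% ± 0.0194 after NaCNBH3 and 0.0435% ± 0.00179 in mock (SD, n = 6 each), a 2.29-fold ratio. The difference was 0.0561 percentage points ± 0.0192 (SD over 6 pairs), positive in 6 of 6 pairs, with p = 0.03125 by a two-sided exact sign-flip permutation test, the smallest value that 6 pairs allow. It was 0.03125 after Benjamini-Hochberg adjustment over the 9 site groups tested this way, and 0.0625 with the 9 tests of genotype included in the same family.

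**Figure D1:**
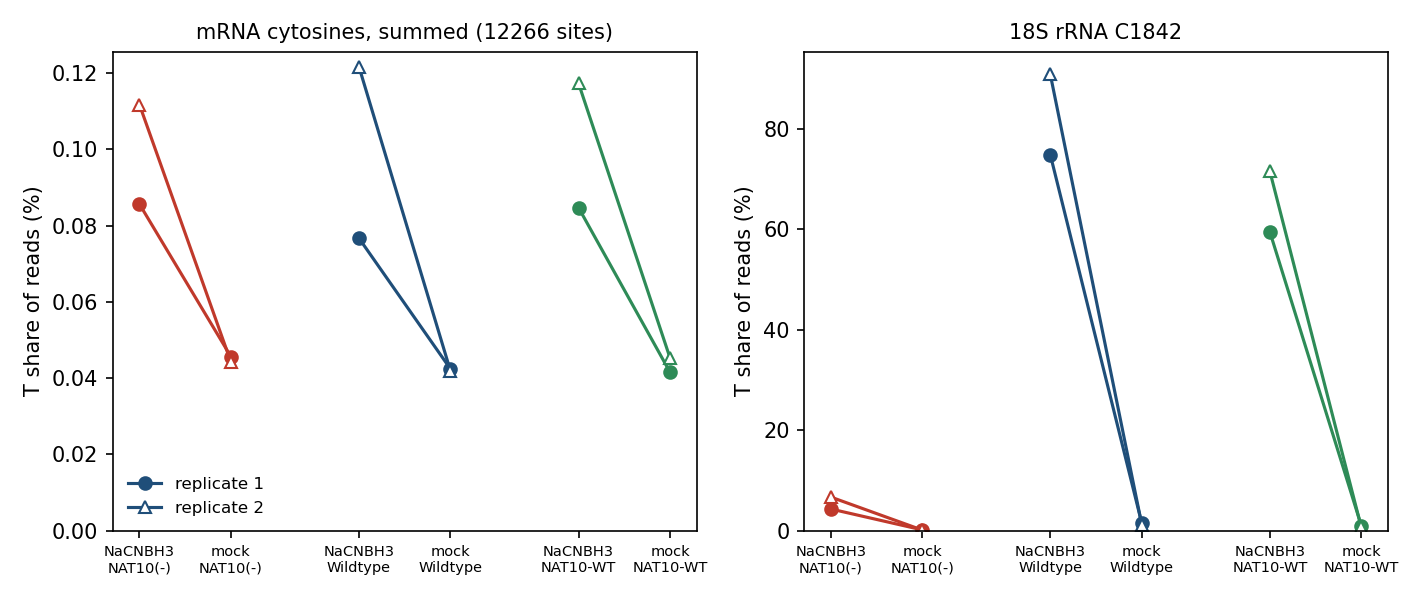
T share (percent of reads) in each of the 12 libraries, summed over 12266 mRNA cytosines (left) and at 18S rRNA C1842 on another scale (right), by genotype, with the NaCNBH3 and mock fractions of one RNA joined by a line (circles replicate 1, triangles replicate 2). In the mRNA sums every NaCNBH3 library lies above every mock library, from 0.0767% to 0.122% against 0.0415% to 0.0456%, in all 3 genotypes, while at C1842 the NAT10(-) libraries stay at 4.29% and 6.66%.

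The difference between fractions, called the excess below, was 0.0400 and 0.0675 percentage points in NAT10(-) cells, against 0.0343 and 0.0798 in Wildtype and 0.0432 and 0.0720 in NAT10-WT cells. The NAT10(-) pairs lay inside the range of the other 4. Their mean was 0.0538, against 0.0573 for the 4 pairs with NAT10, a difference of -0.00355 percentage points (two-sided exact permutation test of 2 against 4 pairs, p = 0.733; smallest possible 0.0667, so this design could not pass 0.05). Within replicate 1 the difference was 0.00130, and within replicate 2 it was -0.00839. Replicate 2 exceeded replicate 1 after NaCNBH3 by 0.0261 percentage points in NAT10(-), 0.0450 in Wildtype and 0.0326 in NAT10-WT cells. In the mock fractions the same step was -0.00138 in NAT10(-), -0.000506 in Wildtype and 0.00377 in NAT10-WT cells. The spread between replicates was thus larger than the difference between genotypes, and it moved in the same direction as the 18S T share. Its part in the result was not tested.

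The other mismatches at the same cytosines differed between fractions by less than the spread between pairs. The C>A share averaged 0.0108% after NaCNBH3 and 0.0106% in mock, higher in 4 of 6 pairs (exact sign-flip p = 0.688). The C>G share averaged 0.00657% after NaCNBH3 and 0.00643% in mock, also higher in 4 of 6 pairs (exact sign-flip p = 0.531). As a description, the 59053 other reference cytosines with a mock T share up to 5%, both 18S rRNA cytosines among them, had excesses of 0.0498 and 0.0731 percentage points in NAT10(-), 0.0672 and 0.118 in Wildtype, and 0.0717 and 0.112 in NAT10-WT cells, so that the 4 pairs with NAT10 were each above the NAT10(-) pair of the same number. The 59016 of them with a T share up to 5% after NaCNBH3 as well, a choice that uses the NaCNBH3 reads, had 0.0439 and 0.0661 in NAT10(-), 0.0402 and 0.0805 in Wildtype, and 0.0449 and 0.0739 in NAT10-WT cells.

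The excess was present in coding and untranslated regions, and its means in them lay within the spread between pairs. It was 0.0568 percentage points ± 0.0200 in 5′ UTRs (2347 cytosines), 0.0561 ± 0.0195 in coding sequence (8646) and 0.0551 ± 0.0187 in 3′ UTRs (1264; SD over 6 pairs in each). Each was positive in 6 of 6 pairs, with an exact sign-flip p of 0.03125. The mock share was 0.0504% in 5′ UTRs, 0.0424% in coding sequence and 0.0385% in 3′ UTRs. Within coding sequence the excess was 0.0563 percentage points at codon position 1, 0.0566 at position 2 and 0.0557 at position 3. The 833 cytosines in CCG triplets had an excess of 0.0540 ± 0.0198 percentage points and the 11433 in the other triplets 0.0563 ± 0.0192. Over the 16 triplets the excess ran from 0.0479 in TCA to 0.0620 in GCC, positive in 6 of 6 pairs in each triplet, and the highest mock share was 0.0695% in TCT.

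None of these groups differed by genotype beyond the spread between pairs. NAT10(-) minus the mean of the other 4 pairs was 0.00246 percentage points in 5′ UTRs, -0.00508 in coding sequence, -0.00437 in 3′ UTRs and -0.000147 in CCG triplets. The exact permutation p was 0.933 for the 5′ UTRs, 0.667 for coding sequence, 0.6 for 3′ UTRs and 1 for CCG triplets. In CCG triplets, the triplet of the 18S targets, the mean excess was 0.0539 percentage points in NAT10(-) cells and 0.0540 in the 4 pairs with NAT10.

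**Figure D2:**
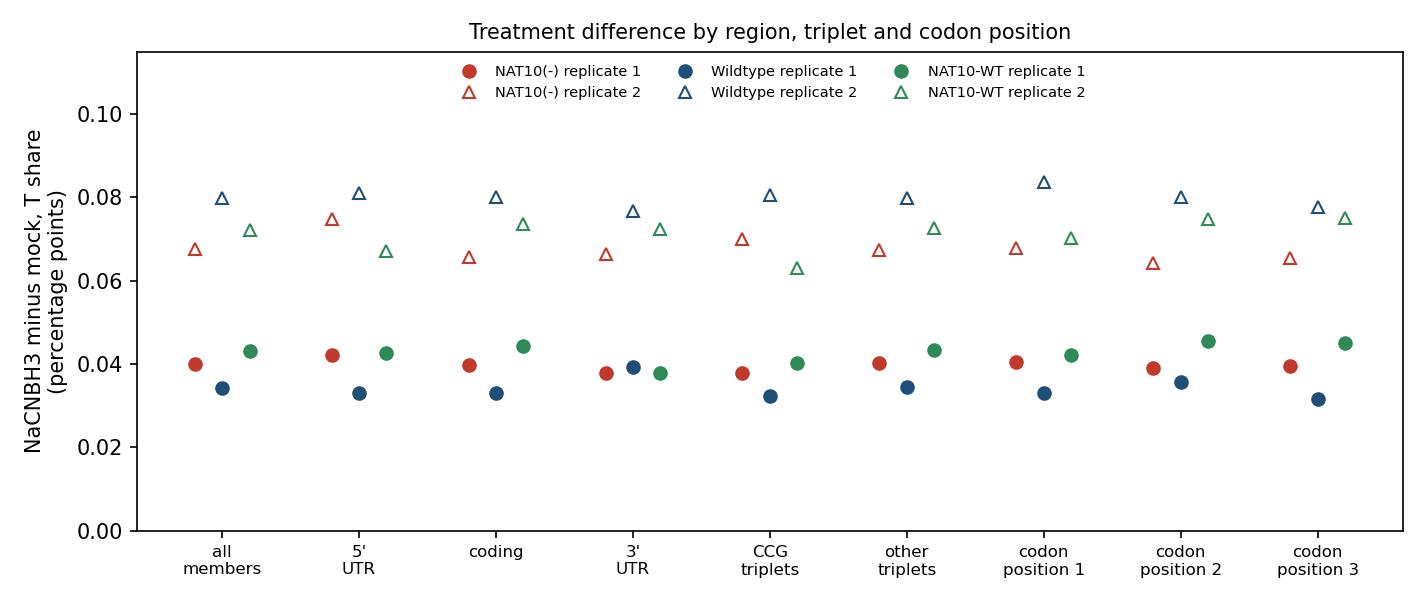
Excess of the summed T share (NaCNBH3 minus mock, percentage points) in each of the 6 RNA pairs, by site group, with NAT10(-), Wildtype and NAT10-WT pairs marked. All pairs of all groups lie above 0, and the 2 NAT10(-) pairs lie within the range of the other 4 in every group.

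The sums set a limit on the T by which cells with NAT10 exceeded NAT10(-) cells. After NaCNBH3 the NAT10(-) cells still had 4.29% and 6.66% T at 18S C1842. NAT10-made T that likewise remained in their mRNA would be subtracted and is not covered by the limit. Within replicate 1, the NAT10(-) excess minus the Wildtype excess was 0.00573 percentage points (95% interval 0.000869 to 0.0106), and within replicate 2 it was -0.0123 (-0.0169 to -0.00764). The sign turned between replicates although each interval left out 0, and the intervals cover counting error only. Against NAT10-WT the difference was -0.00314 (-0.00791 to 0.00163) in replicate 1 and -0.00452 (-0.0100 to 0.000999) in replicate 2. The bound farthest from 0 in the direction of NAT10-dependent T was that of Wildtype replicate 2, at 1.69 T reads per 10000 cytosine reads. It was 0.791 and 1.00 per 10000 for the NAT10-WT replicates, and below 0 for Wildtype replicate 1. The limits were also divided by the T share at 18S C1337 or C1842 in the same library, whichever was lower, taken as the conversion. They then came to 1.90 per 10000 cytosines for Wildtype replicate 2 and 1.33 and 1.40 for NAT10-WT. By region, scaled the same way, the largest bound was 1.94 in 5′ UTRs, 2.25 in coding sequence and 3.07 in 3′ UTRs, and it was 3.34 in CCG triplets, where fewer reads widen the interval.

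Single cytosines were tested with Fisher's exact test in each replicate, on all positions and mismatches of the libraries, and called when both replicates moved one way with a Benjamini-Hochberg adjusted p under 0.05. Testing needed 5 mismatch reads and a share over 1% in at least 1 of the 2 libraries compared, which few mRNA cytosines reached. T in mock alone could meet this, and 27 mRNA cytosines had a mock T share over 1%. In NaCNBH3 against mock, 23 were tested in both replicates of NAT10(-) cells, 22 in Wildtype and 22 in NAT10-WT cells, and 0 were called in any genotype in either direction by the Fisher rule. In none of the 3 genotypes did an mRNA cytosine have an unadjusted p under 0.05 in both replicates in one direction. Over all C>T features tested, the share called higher was 3.69% in NAT10(-), 8.53% in Wildtype and 10.6% in NAT10-WT cells, and the share called lower was 0% in NAT10(-), 0.133% in Wildtype and 0.668% in NAT10-WT cells. With 22 or 23 mRNA cytosines tested, a count of 0 cannot be told from these shares and is no result about the mRNA cytosines. At these depths, with no T in mock, the smallest T share that could have been called had a median of 3.00% in NAT10(-), 3.29% in Wildtype and 5.26% in NAT10-WT cells. A share of 5% would have been callable at 91.1% of the cytosines in NAT10(-), 76.4% in Wildtype and 46.1% in NAT10-WT cells, and a share of 10% at 100% in each. limma on the log2 odds of T with the RNA sample as a block called none of 2814 mRNA cytosines in any genotype, but it also called 0% of all 264029 features in NAT10(-), 0.00757% in Wildtype and 0% in NAT10-WT cells, so its count of 0 is no result about the mRNA cytosines. Without the block it called 0 in NAT10(-), 0 in Wildtype and 1 in NAT10-WT cells, beside 0.511% of all features in NAT10(-), 0.559% in Wildtype and 0.421% in NAT10-WT cells. Fisher's test on the summed reads of both replicates called 0 mRNA cytosines in NAT10(-), 2 in Wildtype and 2 in NAT10-WT cells, beside 8.95% of all features tested in NAT10(-), 14.2% in Wildtype and 10.9% in NAT10-WT cells. On the same summed reads after NaCNBH3, it called 7 in NAT10(-) against Wildtype cells, beside 26.1% of all features tested, and 1 in NAT10(-) against NAT10-WT cells, beside 11.1%.

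One cytosine of the RPS16 mRNA, which encodes a protein of the small ribosomal subunit, had T after NaCNBH3 in both NAT10-WT replicates. Unlike the 18S cytosines, it had no T in the Wildtype NaCNBH3 libraries. It lies at chr19:39433701 on the minus strand, at codon position 1, in the CCG context printed above. After NaCNBH3, T was read in 0 of 182 and 2 of 407 reads in NAT10(-) cells, in 0 of 151 and 0 of 195 in Wildtype cells, and in 14 of 244 and 5 of 162 in NAT10-WT cells. In mock it was read in 0 of 218 and 0 of 308 reads in NAT10(-), in 0 of 149 and 1 of 186 in Wildtype, and in 0 of 238 and 0 of 140 in NAT10-WT cells. Both NAT10-WT NaCNBH3 libraries therefore lay above the other 10, at 5.74% (95% exact interval 3.17 to 9.44) and 3.09% (1.01 to 7.06), while both Wildtype NaCNBH3 libraries had no T, with upper ends of the same interval at 2.41% and 1.87%. Replicate 1 of NAT10-WT passed Fisher's exact test (adjusted p = 0.00182) and replicate 2 did not (p = 0.0637, adjusted p = 0.372), so the cytosine was not called. With both replicates summed, 19 of 406 reads against 0 of 378 gave an adjusted Fisher's exact p of 8.28e-05, a test on pooled reads that leaves out the spread between replicates, and limma without the block gave an adjusted p of 0.0395. NAT10(-) against NAT10-WT was past the threshold in replicate 1 (adjusted Fisher's exact p = 0.00719) and not in replicate 2 (0.157). In the FKBP, K290A, E389L, H537A and G641E libraries the NaCNBH3 share at this cytosine was 0 to 0.620%. Few reads lay behind some of the zeros, for which 3 counts allow up to 2.27% and 3.53% in H537A and 2.19% in E389L replicate 2.

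In NAT10(-) against Wildtype among the NaCNBH3 libraries, 22 mRNA cytosines were tested, of which 2 were called lower and 0 higher by the Fisher rule, where 9.12% of all C>T features were called lower and 5.18% higher. Neither was specific to NaCNBH3. RPL37A, a protein of the large ribosomal subunit, had T at chr2:216498874 in its 5′ UTR in 6 of 342 reads (1.75%) and in 0.780% of reads of NAT10(-) cells, against 132 of 437 (30.2%) and 139 of 472 (29.4%) in Wildtype cells (adjusted Fisher's exact p = 2.94e-28 and 1.06e-48). The mock fractions showed the same contrast, with 3.43% and 2.04% in NAT10(-) against 30.03% and 33.4% in Wildtype cells. NAT10-WT cells, which have NAT10, were at 1.41% and 0.637% after NaCNBH3. H3C2, a replication-dependent histone H3 gene, had T at chr6:26031734, codon position 3, in 26.6% and 28.1% of reads in NAT10(-) cells against 42.8% and 44.9% in Wildtype cells (adjusted Fisher's exact p = 0.00138 and 1.16e-05). Its mock shares were 32.3% and 27.2% in NAT10(-) against 42.0% and 49.7% in Wildtype cells, and NAT10-WT cells were at 28.97% and 30.6% after NaCNBH3. Against NAT10-WT, 23 mRNA cytosines were tested and 0 were called by the Fisher rule, where 8.06% of all C>T features were called lower in NAT10(-) cells and 0.496% higher. With 23 tested, this 0 cannot be told from those shares. The RPS16 cytosine was the 1 mRNA cytosine lower at an unadjusted Fisher's exact p under 0.05 in both replicates (0.000453 and 0.0222), and 0 were higher.

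**Figure D3:**
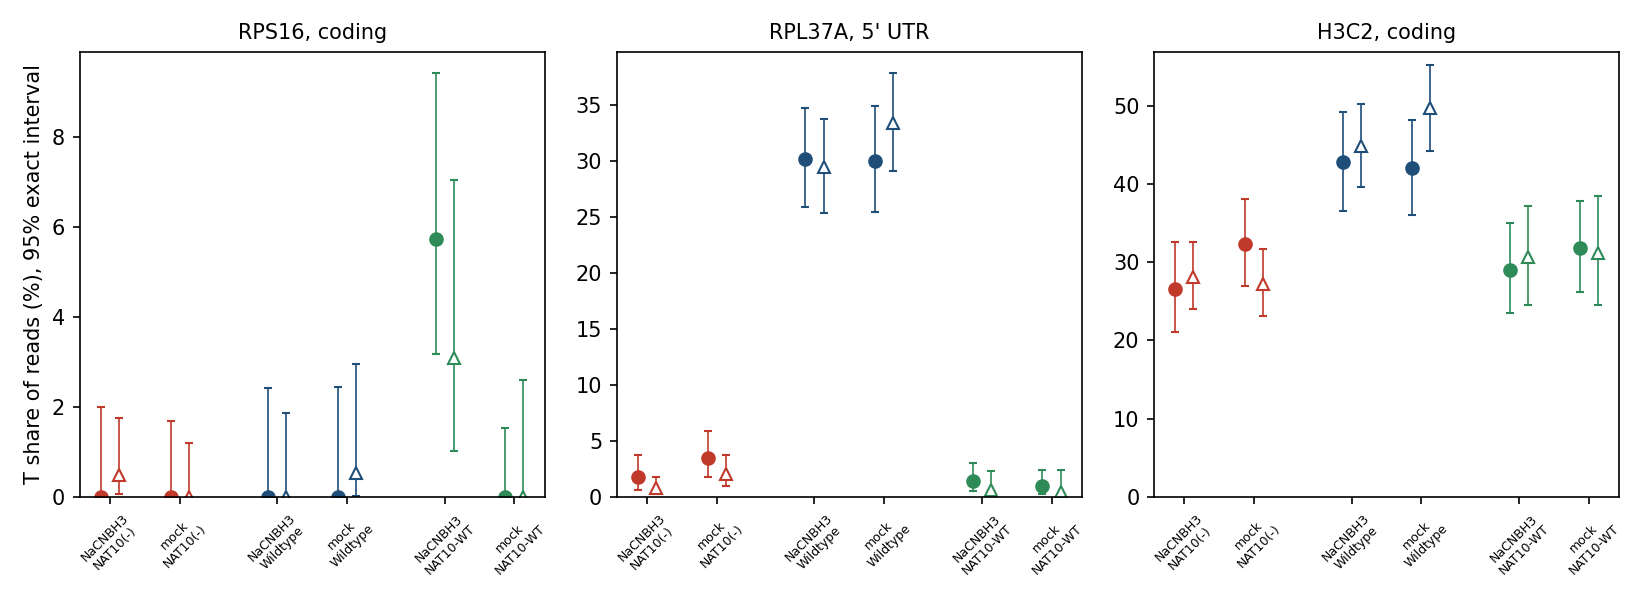
T share (percent) in each of the 12 libraries at the RPS16, RPL37A and H3C2 cytosines, with NaCNBH3 beside mock for each genotype, replicate 1 as circles, replicate 2 as triangles and bars for 95% exact counting intervals. The RPS16 cytosine stands at 5.74% and 3.09% in the NAT10-WT NaCNBH3 libraries and at 0.538% or less in the other 10, and the RPL37A and H3C2 cytosines differ between genotypes alike in both fractions.

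Ranked by mean excess over the 4 pairs with NAT10, as a description with no test, the first 10 cytosines were 2 in EEF2, 2 in RPS16 and 1 each in RPL9, H2BC8, H2BC21, EEF1A1, H2BC12 and FAU. Most had T in mock already. The mock share was 76.8% and the excess 3.00 percentage points at EEF2 chr19:3982969, 64.4% and 2.49 at RPS16 chr19:39435881, 61.8% and 1.12 at H2BC8 chr6:26216615, 21.6% and 0.932 at EEF1A1 chr6:73521032 and 11.9% and 1.14 at RPL9 chr4:39458911. The RPS16 CCG cytosine described above had an excess of 2.07 percentage points in these pairs and 0.246 in NAT10(-) cells. FAU, which encodes a ubiquitin-like protein fused to a small-subunit ribosomal protein, had a single T read in each of the 4 NaCNBH3 libraries with NAT10 and none in their mock fractions, which is an excess of 0.765 percentage points at chr11:65121783, with 0 of 168 and 1 of 250 T reads in NAT10(-) cells. Over the 12266 cytosines kept in the sums, the mean excess exceeded 1 percentage point at 2 cytosines in the NAT10(-) pairs and at 2 in the 4 pairs with NAT10.

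T in mock reads stood at the first bases of several mRNAs. Of the 27 cytosines with a mock T share over 1%, 12 lay within 5 bases of an annotated transcript start, where 664 of the 12281 cytosines lie. They belong to mRNAs of ribosomal proteins, the ribosome-bound RACK1 and elongation factors, which are known to begin with a cytosine and a run of pyrimidines (5′ terminal oligopyrimidine mRNAs). Both examples below are at the annotated start, with the cytosine and its neighbours in capitals. The bases before the cytosine are genomic sequence upstream of that start.
EEF1A1 5′ UTR (chr6:73521022-73521042, -): cgtgaacgtTCTttttcgcaa
RPL28 5′ UTR (chr19:55385924-55385944, +): tcgccttccTCTttccgtctc
EEF1A1, translation elongation factor 1 alpha, had 21.6% T in the summed mock reads and RPL28, a large-subunit protein, 3.03%. The RACK1 cytosine, at 29.8%, lay upstream of the annotated start (position -4), in a GCG triplet and not in a run of pyrimidines. Others were RPL9 at 11.9%, RPL19 at 2.30%, RPS19 at 2.25%, RPS12 at 2.07%, RPL13 at 1.73%, RPS27A at 1.54% and EEF1G at 1.16%, with adjacent cytosines of RPL15 at 1.29% and 1.16%. Their excess after NaCNBH3 in the 4 pairs with NAT10 had no common sign, at 0.514 percentage points in RPL19 and -1.47 in RPS19, for example. Away from starts, H3C2 chr6:26031640 and IGF2 chr11:2132381, both in 3′ UTRs, read T in nearly every read of every library, with 99.96% in H3C2 and 99.90% in IGF2 in the summed mock reads.

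The upper limit on the T share at each cytosine, the upper end of the 95% exact (Clopper-Pearson) interval with both NaCNBH3 replicates summed, had a median of 0.643% in NAT10(-), 0.775% in Wildtype and 0.887% in NAT10-WT cells. The order follows the reads, with medians of 719 in NAT10(-), 600 in Wildtype and 496 in NAT10-WT cells. With Wildtype and NAT10-WT cells summed, the median limit was 0.485%, and it was under 1% at 11792 cytosines (96.0%) and under 2% at 12253 (99.8%). No T was read at 4081 of them (33.2%) in these 4 libraries, where 3 counts give a median limit of 0.337% (0.0501% to 0.619%). The limit reached 5% at 15 cytosines only, and all 15 had mock T shares over 5%. It was lower in better covered regions, with a median of 0.353% in 3′ UTRs, 0.448% in 5′ UTRs and 0.510% in coding sequence. Among the 833 CCG cytosines the median was 0.5003%, and the limit was under 2% at 832. The remaining one was the RPS16 cytosine, with 3.92%. These limits take all T reads as signal, the NaCNBH3 background included, and are limits on the T share. ac4C that is converted incompletely would be higher in proportion. The T share at 18S rRNA does not tell incomplete conversion from incomplete acetylation.

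**Figure D4:**
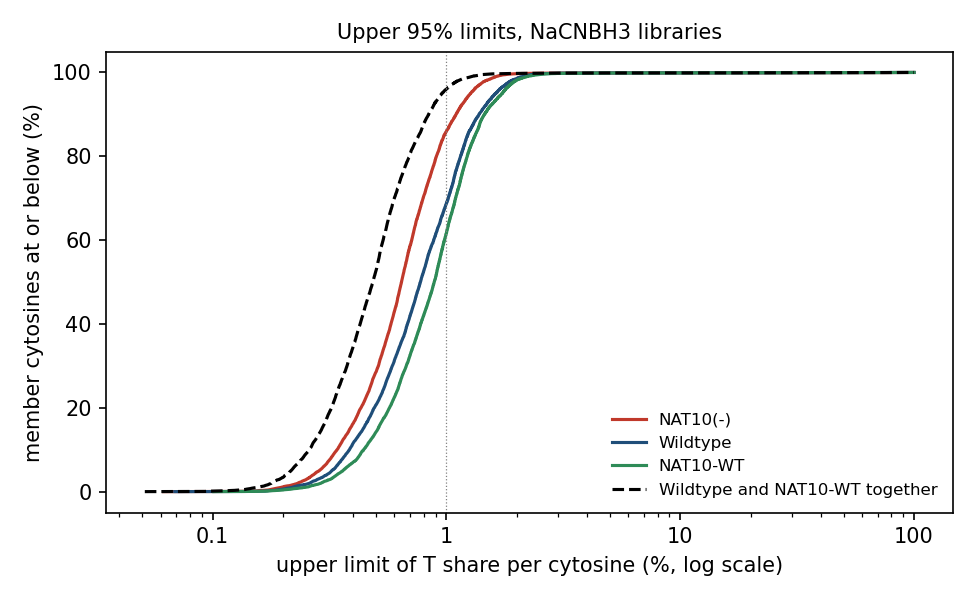
Upper 95% limit of the T share (percent, log axis) over the 12281 mRNA cytosines, as the cumulative share of cytosines, for each genotype and for Wildtype and NAT10-WT summed. The curve of Wildtype and NAT10-WT summed has its median at 0.485% and reaches 99.8% of cytosines at 2%.

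Summed by gene, the log2 difference between NaCNBH3 and mock, averaged over the 3 genotypes, was positive in 140 of the 142 genes with 10 T reads or more. The 10 genes with the most reads held 3859 of the cytosines and 42.8% of their reads. They were IGF2 (insulin-like growth factor 2), ACTB (cytoplasmic actin), ALB (serum albumin), FTL (ferritin light chain), EEF2 (translation elongation factor 2), APOA2 (an apolipoprotein), EEF1A1 and the histone genes H3C15, H3C14 and H4C14. Their T shares averaged 0.0911% to 0.114% after NaCNBH3 and 0.0370% to 0.0523% in mock, with excesses of 0.0521 to 0.0635 percentage points, positive in 6 of 6 pairs in each. IGF2, with 1181 cytosines, had 0.0835% and 0.103% T after NaCNBH3 in NAT10(-) cells, 0.0760% and 0.119% in Wildtype and 0.0744% and 0.110% in NAT10-WT cells. Its mock shares were 0.0450% and 0.0391% in NAT10(-), 0.0379% and 0.0404% in Wildtype, and 0.0380% and 0.0346% in NAT10-WT cells, below every NaCNBH3 value.

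Gene sums were tested with limma on log2((T + 0.5)/(C + 0.5)), with the RNA sample as a block, over the 142 genes with 10 T reads or more in all. Gene copies such as H3C15 and H3C14 share reads, so that their sums are not independent. Averaged over the 3 genotypes, 114 genes were higher after NaCNBH3 and 0 lower at an adjusted p under 0.05 (80.3% called higher), with a median log2 difference of 1.17. This contrast was added after the data were seen, and its calls rest on replicate 2: without it 0 of 142 genes were called, although 66 were higher at an unadjusted p under 0.05, and without replicate 1 113 were called. Within a genotype, which rests on 2 pairs, limma called 0 genes in NAT10(-), 1 in Wildtype (0.704% of genes tested) and 0 in NAT10-WT cells, with 58 in NAT10(-), 59 in Wildtype and 68 in NAT10-WT cells higher at an unadjusted p under 0.05. The count within a genotype rose to 50 in NAT10(-), 44 in Wildtype and 52 in NAT10-WT cells of the 55 genes that had 5 T reads or more in every library.

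No gene differed in its excess between NAT10(-) cells and the mean of Wildtype and NAT10-WT cells by limma (0 of 142 in either direction; 1 gene lower and 0 higher at an unadjusted p under 0.05), with a median difference of -0.05 on the log2 scale. Among the 55 genes with 5 T reads in every library, NAT10(-) minus the others ran from -0.0439 percentage points in H4C12 to 0.0730 in H2AC8, both histone genes, with 32 genes below 0, 23 above and a median of -0.00318.

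**Figure D5:**
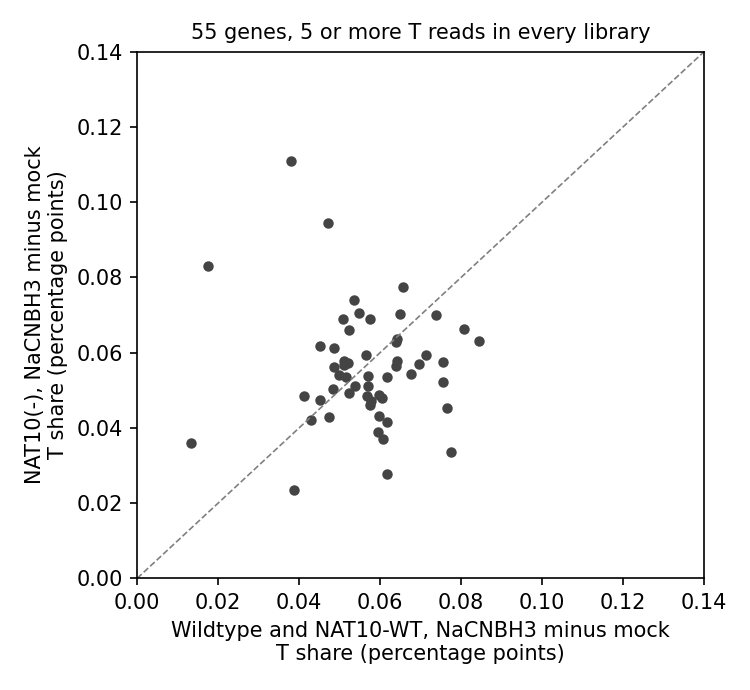
Excess of the T share (NaCNBH3 minus mock, percentage points) for each of the 55 genes with 5 T reads in every library, in NAT10(-) pairs against the mean of the Wildtype and NAT10-WT pairs. The genes scatter on both sides of the diagonal, 32 below and 23 above it.

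Grouped by function, genes of all 6 lists with cytosines here were called higher after NaCNBH3 in shares given beside that of all genes, with no test of the list. Ribosomal proteins and translation factors had cytosines in 24 of 28 listed genes, of which limma called 19 higher after NaCNBH3 over the 3 genotypes, beside 114 of 142 for all genes. None of the calls of any list remains without replicate 2, where 0 of all genes were called. Their summed T share averaged 0.0980% after NaCNBH3 and 0.0433% in mock. Liver secretory genes had cytosines in 7 of 19 (AHSG, ALB, APOA1, APOA2, APOE, SERPINA1 and TF), of which 6 were called higher, with 0.102% after NaCNBH3 and 0.0468% in mock. Replication-dependent histones had cytosines in 15 of 18 (13 called higher), cytoskeletal and matrix genes in 6 of 12 (5 called higher), chaperones in 3 of 16 (3 called higher) and glycolytic enzymes in 2 of 13 (ENO1 and GAPDH, both called higher). The excess lay between 0.0535 and 0.0586 percentage points in all 6 lists, and 0 genes of any list differed between genotypes by limma. Of HMGB2, ITGB5, MDM2 and ACOT7, mRNAs that earlier publications tied to NAT10 acetylation, 0 of 4 had a cytosine with 100 reads in all 12 libraries, so nothing can be said of them here.

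With the remaining genotypes added, 6889 of the cytosines, in 103 genes, had 100 reads in all 32 libraries. The excess was 0.0533 percentage points ± 0.0169 (SD, n = 16 pairs), positive in 16 of 16 pairs (two-sided exact sign-flip permutation p = 3.05e-05, the smallest possible). That test takes the 16 pairs as independent, which they were not. Pairs of one replicate number lay together, at 0.0326 to 0.0441 in replicate 1 and 0.0591 to 0.0830 in replicate 2. The excess averaged 0.0522 ± 0.0159 (0.0332 to 0.0830) in the 12 pairs with depleted or mutated NAT10 and 0.0566 ± 0.0219 (0.0326 to 0.0793) in the 4 pairs of Wildtype and NAT10-WT cells. The difference, -0.00441 percentage points, was within the spread between pairs (two-sided exact permutation test over 1820 rearrangements, p = 0.649), which held the step between replicate numbers. Within replicate 1 the means were 0.0382 with depleted or mutated NAT10 and 0.0384 in Wildtype and NAT10-WT cells, and within replicate 2 they were 0.0662 and 0.0748, a difference of -0.00861. With genotypes rearranged only within a replicate number, a test added after the data were seen, the exact permutation p was 0.281 over 784 rearrangements. The acetyltransferase mutants were at 0.0332 and 0.0649 in H537A and 0.0391 and 0.0622 in G641E cells, and the helicase mutants at 0.0393 and 0.0594 in K290A and 0.0381 and 0.0591 in E389L cells. Replicate 2 was above replicate 1 in all 8 genotypes. These pairs share the Wildtype, NAT10-WT and NAT10(-) libraries with the comparisons above and are not a separate experiment.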

How the data were processed

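Total RNA was partly depleted of rRNA, fragmented and ligated to a 3′ adapter, and each sample was then split into the NaCNBH3 and mock fractions. The authors deposited, for each library, raw counts of reads with A, T, C and G at every position with at least 30 reads, on the transcript's strand, after adapter trimming, removal of duplicates by a molecular identifier, alignment to GRCh38 and a pileup. The tools listed in the submitters' processing notes were STAR 2.7.9a, cutadapt 4.2, SAMtools 1.6 and UMI-tools 1.1.5. No normalization was applied. Reads of near-identical gene copies cannot be assigned to 1 copy. Libraries held 1209889415 to 1732040929 base calls at listed positions, and the 12 libraries compared held 2623254 to 7623157 at the mRNA cytosines.

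Exons and codon positions came from the GENCODE annotation of GRCh38, and tRNA genes from RefSeq names. The members, gene lists, markers and tests were chosen with earlier results of these data known. Named cytosines were those called, then the 10 with the largest mean excess in Wildtype and NAT10-WT pairs. Named genes were the 10 with most reads, those past the limma test and listed genes. The 18S cytosines were the 2 with the highest T share in Wildtype NaCNBH3 libraries. Snippets were read from GRCh38. snoRNA cytosines were not analysed here, and values of some genes that the rule names are not reported here.

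Same-numbered NaCNBH3 and mock fractions were paired because they came from 1 RNA extract. As a check, replicate deviations of gene read levels correlated at 0.914 in NAT10(-), 0.653 in Wildtype and 0.836 in NAT10-WT cells (across 142 genes, which are not independent), while those of the T odds, the quantity tested, correlated at -0.308 in NAT10(-), 0.052 in Wildtype and -0.042 in NAT10-WT cells. The pairing thus rests on the shared extract and not on this check. No 2 replicates held the same counts (chi-square over degrees of freedom 7.49 to 26.0). The study describes the replicates as biological ones. Fisher's exact test, exact permutation tests and Clopper-Pearson limits used Python 3.11.15 with numpy 2.4.6 and scipy 1.17.1, and limma 3.58.1 ran in R 4.3.3. The tests across sites and genes were first tested on simulated data. Intervals and limits cover counting error only. Alternatives were depth minimums of 30 and 300 reads, windows found once in the genome, other mismatch minimums, summed replicates, other pseudocounts, no block and leaving out each replicate.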

Additional observations from a re-analysis of the deposited data

Results flagged for a closer look

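At 4 of the 10 cytosines with the largest excess, the excess had one sign in both pairs of one genotype and the other sign in both pairs of another. The differences between genotypes were not tested. At EEF2 chr19:3982969 the excess was -5.17 and -2.85 percentage points in NAT10(-), -3.27 and -0.589 in Wildtype, and 5.01 and 10.8 in NAT10-WT cells. The mean difference was -11.9 for NAT10(-) minus NAT10-WT and -9.85 for Wildtype minus NAT10-WT. At H2BC8 chr6:26216615 the excess was -4.18 and -6.44 in NAT10(-), -0.638 and -1.91 in Wildtype, and 3.47 and 3.54 in NAT10-WT cells, with mean differences of -8.82 for NAT10(-) minus NAT10-WT and -4.78 for Wildtype minus NAT10-WT. At H2BC21 chr1:149886521 NAT10(-) cells had -2.05 and -2.25 and NAT10-WT cells 2.06 and 2.75, a mean difference of -4.56. At RPL9 chr4:39458911 Wildtype cells had -1.88 and -1.08 and NAT10-WT cells 5.00 and 2.49, a mean difference of -5.22.

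The T share in mock was 76.8% at the EEF2, 61.8% at the H2BC8, 3.41% at the H2BC21 and 11.9% at the RPL9 cytosine. The cytosines were ranked on the Wildtype and NAT10-WT pairs, so that a positive NAT10-WT excess was favoured by the choice. Over all 12281 cytosines, the excess was negative in both NAT10(-) pairs and positive in both NAT10-WT pairs at 35, and the reverse held at 20. It was negative in NAT10(-) and positive in Wildtype pairs at 25, with the reverse at 36, and negative in Wildtype and positive in NAT10-WT pairs at 21, with the reverse at 26.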

How the results depend on the processing

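The depth minimum set the number of cytosines, with 1950 at 300 reads, 46579 at 30 reads and 8060 with windows found once. The excess over all cytosines stayed between 0.0542 and 0.0562 percentage points under the 6 alternatives to the processing. In 3′ UTRs it was 0.0481 (exact sign-flip p = 0.0625) with the high-mock cytosines kept. Without one replicate the 3 remaining pairs all stayed positive, with an exact sign-flip p of 0.25 that cannot pass 0.05: the excess was 0.0392 to 0.0731 for all cytosines, 0.0392 to 0.0743 for 5′ UTRs, 0.0391 to 0.0731 for coding sequence, 0.0383 to 0.0719 for 3′ UTRs and 0.0368 to 0.0712 for CCG triplets.

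NAT10(-) minus the other pairs turned positive at 300 reads, to 0.000662 over all cytosines, 0.000465 in coding sequence, 0.000931 outside CCG and 0.00478 at codon position 3, and to 0.00213 in CCG triplets without the gene with most reads. In 3′ UTRs it stayed negative, at -0.0376 to -0.00162 percentage points under the 6 alternatives to the processing, beside -0.00437 in the main setting. Without one replicate it ran from -0.00839 to 0.00130 over all cytosines, -0.0111 to 0.000937 in coding sequence, -0.00186 to 0.00157 in CCG triplets, -0.00886 to 0.00129 in other triplets, -0.00912 to 0.00296 at codon position 1 and -0.0110 to 0.00116 at codon position 3. Rearranged only within a replicate number, an alternative added after the data were seen, its exact permutation p over all cytosines was 0.556 (9 rearrangements). No alternative gave it a p under 0.05.

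For NaCNBH3 against mock in Wildtype cells, 1 cytosine passed in replicate 1 alone, lower after NaCNBH3, and 1 in replicate 2 alone, higher. In NAT10-WT cells 0 to 2 were called without one replicate. Cytosines called with replicates summed were 2 in Wildtype and 2 in NAT10-WT cells. With summed reads these were RPS19 and RACK1, both lower after NaCNBH3, in Wildtype, and RPS16 and RPL9, both higher, in NAT10-WT cells. In limma without the replicate block, 1 (RPS16) was called in NAT10-WT cells, and with the replicate block 0. NAT10(-) against Wildtype gave 1 with no minimum on mismatch reads, 3 to 4 without one replicate, 7 with replicates summed, 0 at 300 reads and 4 at 30 reads, among them RPS13, higher in NAT10(-) cells, beside RPL37A and H3C2. NAT10(-) against NAT10-WT gave 0 to 1 without one replicate and 1 with replicates summed. With replicates summed, the share called of all features tested was 14.2% in Wildtype and 10.9% in NAT10-WT cells for NaCNBH3 against mock, 26.1% for NAT10(-) against Wildtype and 11.1% for NAT10(-) against NAT10-WT.

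Genes called were 80 with a pseudocount of 5 and 50 with 5 T reads in every library in NAT10(-), 65 and 44 in Wildtype, and 67 and 52 in NAT10-WT cells. Without the replicate block they were 0 in NAT10(-), 6 in Wildtype and 35 in NAT10-WT cells. Over the 3 genotypes 55 of 55 were called with 5 T reads in every library, and 0 to 113 without one replicate, 0 being without replicate 2. Median upper limits without one replicate were 0.922% to 1.61% in NAT10(-), 1.33% to 1.49% in Wildtype and 1.32% to 2.12% in NAT10-WT cells, and a one-sided bound gave 0.646% in Wildtype cells. No difference between genotypes could pass an exact test of 2 against 4 pairs. Depth limits single sites: the smallest callable T share had a median of 3.00% in NAT10(-), 3.29% in Wildtype and 5.26% in NAT10-WT cells.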
